A study of Arabidopsis thaliana with 12 samples.

Results

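BPEp (BIG PETAL P, locus AT1G59640) is a gene for a transcription factor of the basic helix-loop-helix (bHLH) family, and it is followed here in seeds given gibberellin. It is 1 gene, read by 1 probe set, of the 13513 probe sets that the platform annotation gives to exactly 1 gene and of 22746 on the array without controls. BPEp was chosen by measured values. In an earlier pass over the same arrays its change with gibberellin at 6 h was among the largest of the named genes past the threshold of the test. Recomputed here, it stood at place 7 in that order, with a log2 change of 3.30, between EXPA8 with 3.99 and scpl20 with 3.23. Whether BPEp was past the threshold depended on the settings of the fit, as given in the last section. Its signals and changes are therefore given as a description, without a test.

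The samples were seeds of Arabidopsis thaliana, all from 1 seed stock in the Ler background. The 6 groups were seeds kept with 5 µM gibberellin for 3, 6 or 9 h, and seeds kept with water for 3, 6 or 9 h. With 2 arrays to a group, called A and B, there were 12 arrays. Neither the form of gibberellin nor any mutation the stock may carry is stated in the labels, and they do not say whether A and B were separate seed samples. The p-values given for other genes therefore measure the spread between these arrays, which may be technical.

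Proteins of the bHLH family bind DNA as dimers through their basic region and pair through the helix-loop-helix region. BPEp is known from petals, where plants that lack it have larger petals with larger cells, so that it limits cell expansion at a late stage of petal growth. In petals its transcript is raised by jasmonate, and its protein binds the auxin response factor ARF8. The same locus also gives a transcript called BPEub, which differs from BPEp by splicing and is found throughout the plant. Gibberellin promotes germination, in which the embryo grows mainly by cell expansion. The reference table lists 2 transcripts and 2 proteins for the locus. Which of them the probe set reads was not analysed here, so each value below stands for the locus.

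BPEp was a dim gene with a higher signal in gibberellin than in water at each of the 3 times. At 3 h its signal was 23.5 on array A and 32.9 on array B in gibberellin, against 9.57 on A and 6.23 on B in water. At 6 h it was 34.4 on A and 52.7 on B in gibberellin, against 10.5 on A and 1.79 on B in water. At 9 h it was 43.8 on A and 43.0 on B in gibberellin, against 19.1 on A and 25.8 on B in water. Within each time the arrays of the 2 treatments did not overlap. Across times 1 gibberellin array, A at 3 h, lay below 1 water array, B at 9 h. Signals are linear values scaled to a common mean on every array, and a signal of 16 was the brightness above which an array counted in the filter on dim probe sets. BPEp exceeded it on 6 of 6 gibberellin arrays and on 2 of 6 water arrays, both at 9 h. It thus entered the set of 15766 tested probe sets (69.3%) through the arrays on which it was high.

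**Figure D1:**
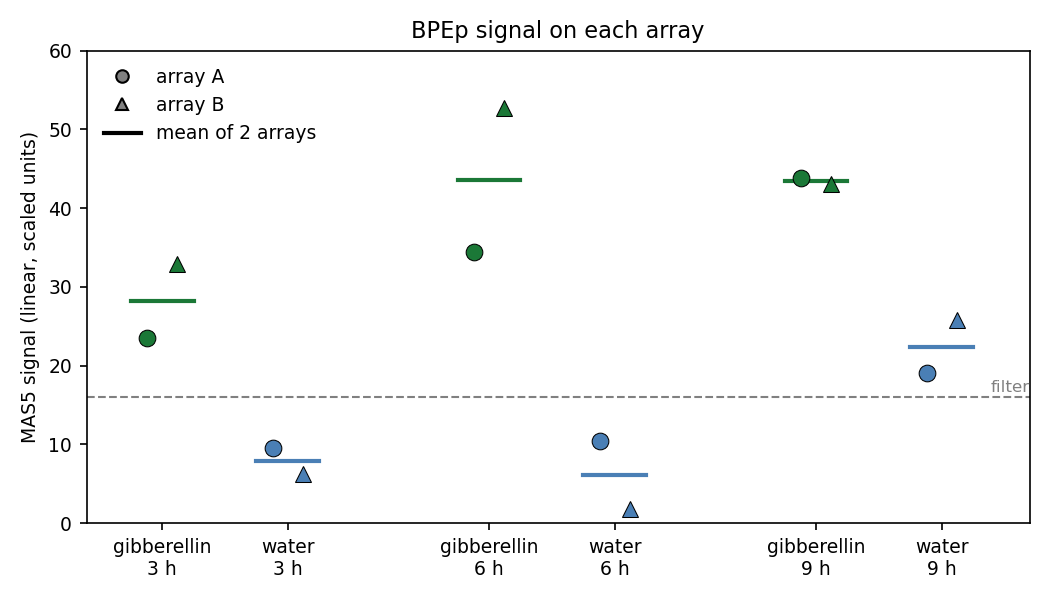
MAS5 signal of BPEp (vertical axis, linear scaled units) on each of the 12 arrays by treatment and time; circles are A arrays, triangles B arrays, horizontal bars means of 2 arrays and the dashed line the filter at 16. All 6 gibberellin arrays lie between 23.5 and 52.7, and the 4 water arrays at 3 h and 6 h lie between 1.79 and 10.5, under the filter.

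In description, the 6 group means fell into 3 levels. The highest was shared by gibberellin at 6 h, with 43.6 ± 12.9, and gibberellin at 9 h, with 43.4 ± 0.514 (mean ± SD, n = 2 each). These neighbours overlapped. Next came gibberellin at 3 h with 28.2 ± 6.67 and water at 9 h with 22.4 ± 4.74 (SD, n = 2 each), which overlapped as well. The lowest were water at 3 h with 7.90 ± 2.36 and water at 6 h with 6.14 ± 6.14 (SD, n = 2 each), again overlapping. Between the first and the second level, and between the second and the third, the arrays of the neighbouring groups did not overlap. The first gap was narrow, with 34.4 on gibberellin 6 h A and 32.9 on gibberellin 3 h B. The log2 changes in gibberellin against 3 h, given below, were smaller than their SE. With 2 arrays to a group, the lack of overlap does not show that the levels differ.

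On the log2 scale the change with gibberellin was 1.85 ± 0.694 at 3 h, 3.30 ± 0.694 at 6 h and 0.97 ± 0.694 at 9 h (± SE from the limma model over all 12 arrays). The median change of all 15766 tested probe sets was -0.02 at 3 h, -0.01 at 6 h and 0.00 at 9 h. In units of signal, the mean in gibberellin exceeded that in water by 20.3 at 3 h, by 37.4 at 6 h and by 21.0 at 9 h. The excess was thus of like size at 3 h and 9 h, while the ratio of the mean signals was 3.58 at 3 h and 1.94 at 9 h. At 6 h that ratio was 7.10.

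The course over time differed between the treatments in description. In gibberellin the log2 change against 3 h was 0.61 ± 0.694 at 6 h and 0.64 ± 0.694 at 9 h (SE). In water it was -0.83 ± 0.694 at 6 h and 1.52 ± 0.694 at 9 h (SE). The signal in water was higher at 9 h than at either earlier time on both arrays. The smaller log2 change with gibberellin at 9 h than at 6 h therefore went with a higher signal in water, since the gibberellin means at 6 h and 9 h were 43.6 and 43.4.

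The A and B arrays gave BPEp the same direction at each time and different sizes. On the A arrays alone the log2 change was 1.30 at 3 h, 1.72 at 6 h and 1.20 at 9 h. On the B arrays alone it was 2.40 at 3 h, 4.88 at 6 h and 0.74 at 9 h. The A arrays thus differed little among the times, and the large value at 6 h came from the B pair. In that pair the water array had the lowest of the 12 signals, 1.79, and the gibberellin array the highest, 52.7. Water 6 h B gave the lowest of the 12 signals for 9.06% of all tested probe sets, so it was not the lowest array in general. Among the 2088 tested probe sets with a mean brightness like that of BPEp it did so for 10%. The largest share among those was 14.9%, on gibberellin 3 h B. Without it the log2 change at 6 h was 2.02, and without water 6 h A it was 4.57.

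Within groups, array B divided by array A gave 1.40 in gibberellin at 3 h, 1.53 at 6 h and 0.983 at 9 h. In water it gave 0.651 at 3 h, 0.171 at 6 h and 1.35 at 9 h. The residual SD of BPEp over the 6 groups was 0.800 on the log2 scale, against a median of 0.322 over all tested probe sets, and 86.1% of these had a smaller one. At the mean brightness of BPEp the model's intensity trend gave an SD of 0.558. The 4 arrays with a low highest signal (3308 to 3787, against 6511 to 9143 on the other 8) were the A arrays at 3 h and 6 h, with both treatments among them. The A values at 3 h and 6 h above are thus the values within those 4 arrays, and the 2 values at 9 h and the B values are those within the other 8.

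The sizes depend on how signals near 0 are treated. With 16 added to every signal before the logarithm, the log2 change was 0.88 ± 0.263 at 3 h, 1.44 ± 0.263 at 6 h and 0.63 ± 0.263 at 9 h (SE). The order of the 3 times was the same on both scales. On the scale with the offset the 2 letters gave 0.63 (A) and 1.14 (B) at 3 h, 0.93 (A) and 1.95 (B) at 6 h, and 0.77 (A) and 0.50 (B) at 9 h.

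**Figure D2:**
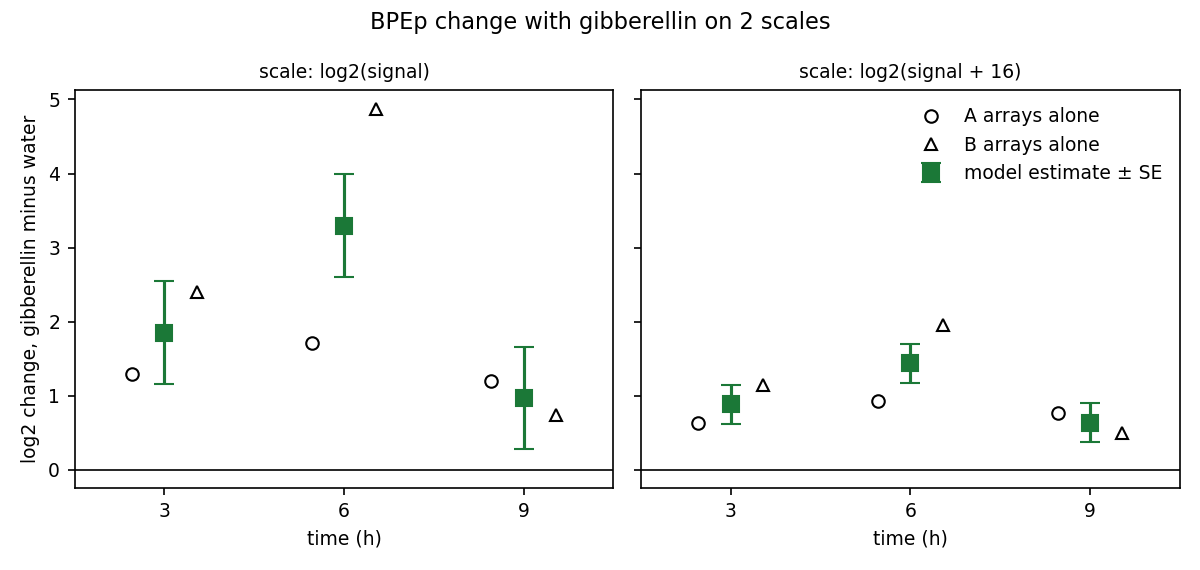
Log2 change of BPEp, gibberellin minus water (vertical axis), at 3, 6 and 9 h (horizontal axis), on the scale of log2(signal) at left and log2(signal + 16) at right; squares with bars are model estimates ± SE, circles the A arrays alone and triangles the B arrays alone. At 6 h the estimate is 3.30 at left and 1.44 at right, and the letters lie furthest apart there.

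The genes next to BPEp on chromosome 1, in the order of the reference table, had these values. CW14 (AT1G59650), the neighbour on one side, had a median signal of 25.3 in gibberellin and 27.8 in water. Its log2 change was -0.62 at 6 h (limma, adjusted p = 0.715) and 0.06 at 9 h (adjusted p = 0.967). AT1G59630, on the other side, did not exceed 16 on any array, with a highest signal of 1.73 in gibberellin and 4.42 in water. One gene further out, CW9 (AT1G59620) stayed under 16 on all 12 arrays as well. AT1G59660 had a log2 change of 1.89 at 6 h (adjusted p = 0.484) and 1.49 at 9 h (adjusted p = 0.394), on signals between 1.25 and 20.4.

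Genes with a like profile were sought among the 8853 other tested probe sets that name 1 gene. Likeness was the root mean square difference from BPEp over the 12 arrays, in log2 units, after the gene's own mean had been taken off. The median of all candidates was 1.44. The closest was AT1G68440 with 0.599, followed by AT3G57010 with 0.661, AT5G17280 with 0.666, AT5G58150 with 0.702 and AT3G01810 with 0.710. AT3G32900, AT4G17150, AT5G48940 and AT5G09490 came next with between 0.712 and 0.715. The tenth was SAG29 (AT5G13170), a sugar transporter of the SWEET family, with 0.744. Since likeness to BPEp was measured on the same 12 arrays, the changes of these genes are a description as well. SAG29 had log2 changes of 2.48 at 3 h, 2.20 at 6 h and 2.02 at 9 h. The probe set of AT3G32900 is of a kind that can also read other transcripts.

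**Figure D3:**
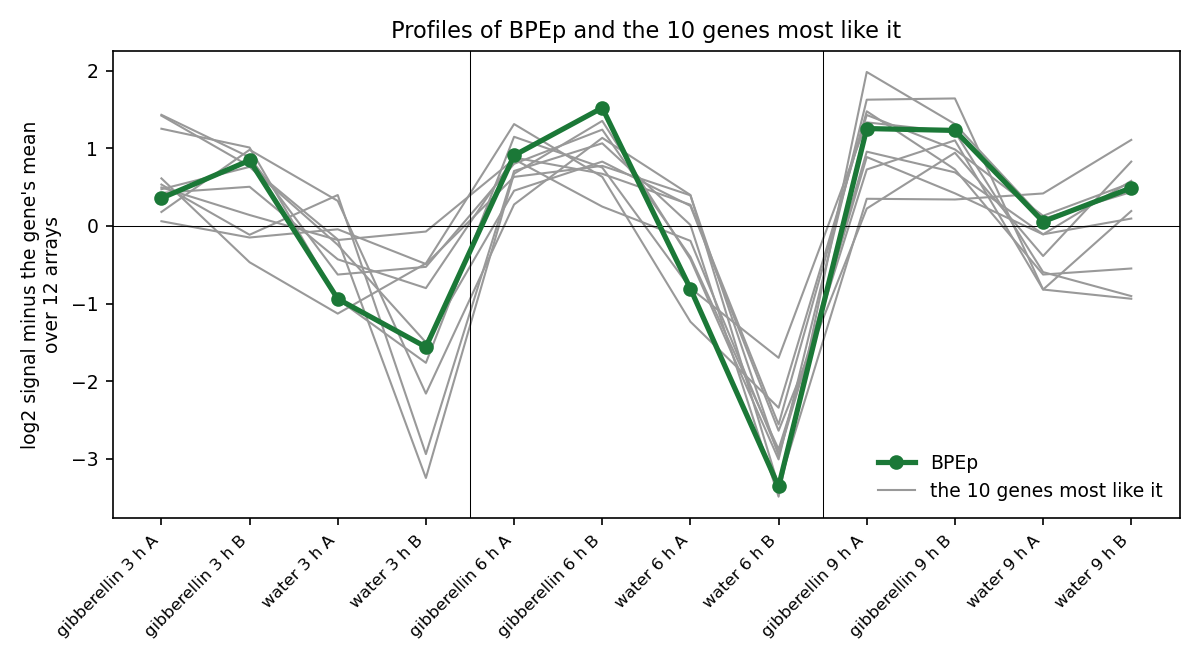
Log2 signal minus the gene's own mean over the 12 arrays (vertical axis) for BPEp (thick line with points) and the 10 genes most like it (thin lines), by array (horizontal axis). BPEp and 8 of the 10 genes have their lowest value on the water 6 h B array.

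This set of like genes rests on the water 6 h B array. Of the 10 genes, 8 had their lowest signal there. For AT1G68440 the signal was 2.38 on water 6 h B and 17.7 on water 6 h A, and for AT4G17150 it was 3.79 and 38.7. Without that array 0 of the 10 remained among the closest 10, and with an offset of 16 on all 12 arrays 2 remained, AT3G32900 and AT5G48940. The setting with both changes was added after seeing the data. AT4G36860 and AT3G03170 were the 2 genes in the closest 10 with the offset, without water 6 h B, and with both. With both, AT4G36860 was the closest of all, at 0.199 log2 units. That value is on the offset scale, where differences between dim signals shrink, and without 1 array. It cannot be set against 0.599 or the median of 1.44 given above.

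AT4G36860 is also an entry of the list of petal and organ size genes, and the reference table gives it by locus alone. Its signal was 462 ± 11.2 at 3 h, 654 ± 85.5 at 6 h and 653 ± 50.1 at 9 h in gibberellin, against 278 ± 12.8, 276 ± 1.86 and 306 ± 50.8 in water at the same times (SD, n = 2 each). The gibberellin mean was thus lowest at 3 h and nearly equal at 6 h and 9 h, as for BPEp, while the water mean moved little. That likeness is a description, since the gene was singled out by its likeness to BPEp on the same arrays. The p-values below belong to it as an entry of the gene list and do not bear on the likeness. AT4G36860 rose with gibberellin at 6 h by 1.24 ± 0.178 on the log2 scale (limma, adjusted p = 0.00519). It rose at 9 h too (SE 0.178, limma adjusted p = 0.00434), with the means given above. At 3 h the change was 0.73 ± 0.178 (adjusted p = 0.28, and 0.0462 with the letter as a replicate block). The call at 6 h was lost without gibberellin 6 h B or without water 6 h B (highest adjusted p = 0.0586). AT3G03170, on signals between 96.0 and 318 over the 12 arrays, had log2 changes of 1.18 at 3 h and 1.44 at 6 h.

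Few of BPEp's relatives and partners could be followed, because the annotation gives few of them a probe set of their own. Of 15 other entries of the subfamily list around BPEp, 4 were measured and 3 tested. Of 11 genes of the PIF group 2 were tested, of 13 HLH genes without DNA binding 0 were measured, and of 27 petal and organ size genes 3 were tested. Of 27 genes of jasmonate synthesis and response 2 were tested, and of 34 other genes that the reference table annotates as bHLH 5 were tested. The bHLH entries of these lists, MYC3 and MYC4 included, come to 12 tested genes.

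At 9 h limma put 5 of these 12 bHLH genes past the test, 3 higher and 2 lower in gibberellin, with a median log2 change of 0.22. Of all tested probe sets 7.47% were past the test at 9 h, 3.79% higher and 3.69% lower. The count at 9 h depended most on the 4 arrays of that time, and leaving out either gibberellin array at 6 h lowered it slightly. Leaving out either gibberellin array, A or B, reduced it to 1. Leaving out the water arrays gave 3 (A) and 0 (B). At 6 h 0 of the 12 passed (4 had an unadjusted p under 0.05; median 0.23), where 1.48% of all tested probe sets were past the test. With the letter as a replicate block 2 of the 12 passed at 6 h. At 3 h 0 passed (1 had an unadjusted p under 0.05; median -0.00), where 0.228% of all tested probe sets were past the test. With the replicate block 6 of the 12 passed at 9 h. Of all tested probe sets 5.44% were then past the test at 6 h and 17.1% at 9 h.

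SPT (SPATULA), a bHLH gene known in carpel growth and in the control of germination, rose to 276 ± 50.6 in gibberellin at 9 h, against 108 ± 12.8 in water (SD, n = 2 each). The log2 change was 1.35 ± 0.247 (limma, adjusted p = 0.00829), after 0.50 at 3 h and 0.99 at 6 h (adjusted p = 0.0883, and 0.0028 with the replicate block). Its close relative ALC (ALCATRAZ), known for fruit opening, had a change of 0.51 ± 0.521 at 9 h (adjusted p = 0.65). The water signal of SPT stayed between 108 and 114 as a group mean at all times. The call of SPT was lost without gibberellin 9 h A or water 9 h B (highest adjusted p = 0.0881).

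Of the 5 tested genes among the other annotated bHLH genes, 2 rose and 1 fell at 9 h. Of all tested probe sets 3.79% were past the test and higher at that time, and 3.69% lower. All 5 are known as background from the response to iron deficiency, as is BHLH101, which stayed under 16 on all 12 arrays. bHLH34 reached 107 ± 6.95 in gibberellin, against 43.5 ± 10.7 in water (SD, n = 2 each), a log2 rise of 1.32 ± 0.287 (limma, adjusted p = 0.0188). bHLH115 rose by 1.06 ± 0.280 (adjusted p = 0.0423). bHLH121 averaged 93.5 ± 9.22 in gibberellin and 175 ± 33.8 in water (SD, n = 2 each), a log2 change of -0.90 ± 0.210 (adjusted p = 0.0259). bHLH104 (-0.12) and ILR3 (-0.21) did not pass. In fits that leave out 1 array bHLH34 and bHLH121 passed in 9 of 12, each failing without gibberellin 9 h A, gibberellin 9 h B or water 9 h B. bHLH115 passed in 6, failing without any 1 of the 4 arrays at 9 h or of the 2 gibberellin arrays at 6 h, and it also failed without an intensity trend. bHLH121 failed without the trend too, and in a fit to the arrays at 9 h alone (highest adjusted p over all settings 0.225).

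MYC3, a regulator of jasmonate responses, averaged 64.3 ± 17.5 in gibberellin at 9 h and 141 ± 0.153 in water (SD, n = 2 each). It fell by 1.16 on the log2 scale (SE 0.234; limma, adjusted p = 0.013), a call lost without gibberellin 9 h B or either water 9 h array. MYC4, which acts with it, had a change of 0.97 ± 0.817 (adjusted p = 0.557). These were the 2 tested genes of the jasmonate list, and 0 passed at 3 h or 6 h with limma (1 had an unadjusted p under 0.05 at 6 h and 0 at 3 h). Over all tested probe sets the shares past the test were 0.228% at 3 h, 1.48% at 6 h and 7.47% at 9 h.

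In the list of petal and organ size genes, 2 of 3 tested members rose at 9 h, where 7.47% of all tested probe sets were past the test. There 3.79% were past it and higher. At 6 h 1 of the 3 rose, where 1.48% of all tested probe sets were past the test and 0.913% were past it and higher. With the replicate block 2 of the 3, ARL and AT4G36860, were past the test at 3 h too, as were 0.698% of all tested probe sets. Besides AT4G36860 the second was ARL (ARGOS-LIKE), which promotes organ growth through cell expansion. ARL reached 323 ± 64.0 in gibberellin at 9 h, against 111 ± 27.3 in water (SD, n = 2 each), a log2 rise of 1.55 ± 0.352 (limma, adjusted p = 0.0218). At 3 h ARL averaged 323 ± 25.8 in gibberellin, against 124 ± 1.75 in water (SD, n = 2 each), a log2 change of 1.38 (limma adjusted p = 0.322, and 0.0443 with the replicate block). At 6 h its gibberellin arrays lay far apart, with 366.5 on A and 144.0 on B, against 131.0 on A and 118 on B in water (log2 change 0.89, adjusted p = 0.34). Its call at 9 h was lost without any 1 of the 4 arrays at 9 h and without an intensity trend. TCP15, a transcription factor that acts in organ growth, had a change of 1.23 ± 0.612 at 9 h (limma, adjusted p = 0.27). It exceeded 16 on 2 of 12 arrays, gibberellin 6 h B with 18.7 and gibberellin 9 h B with 20.6. It thus entered the tested set only through gibberellin arrays on which it was high, as BPEp did through its bright arrays. JAG and NUB, related zinc finger genes that promote growth of lateral organs, did not exceed 16 on any array.

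In the subfamily around BPEp, 3 members known to the reference table by locus were tested and 0 passed at 3, 6 or 9 h with limma. Over all tested probe sets the shares past the test were 0.228% at 3 h, 1.48% at 6 h and 7.47% at 9 h. With 3 genes, 0 calls therefore says little about the subfamily. An unadjusted limma p under 0.05 was found for 1 of the 3 at 9 h and for 0 at 3 h or 6 h. That 1 was AT3G57800, with a log2 change of 1.34 ± 0.428 at 9 h (adjusted p = 0.0841, and 0.0408 with the replicate block). AT5G62610 had a change of -0.06 and AT2G42300 one of -0.51 at 9 h. CES (CESTA), known in brassinosteroid responses, stayed under 16 on all 12 arrays. A difference between the effects at 9 h and at 3 h was tested for the 15 members of these lists other than BPEp. It lay between -0.72 and 1.08 on the log2 scale, with a lowest limma adjusted p of 0.705, and 0.0127% of all tested probe sets passed.

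**Figure D4:**
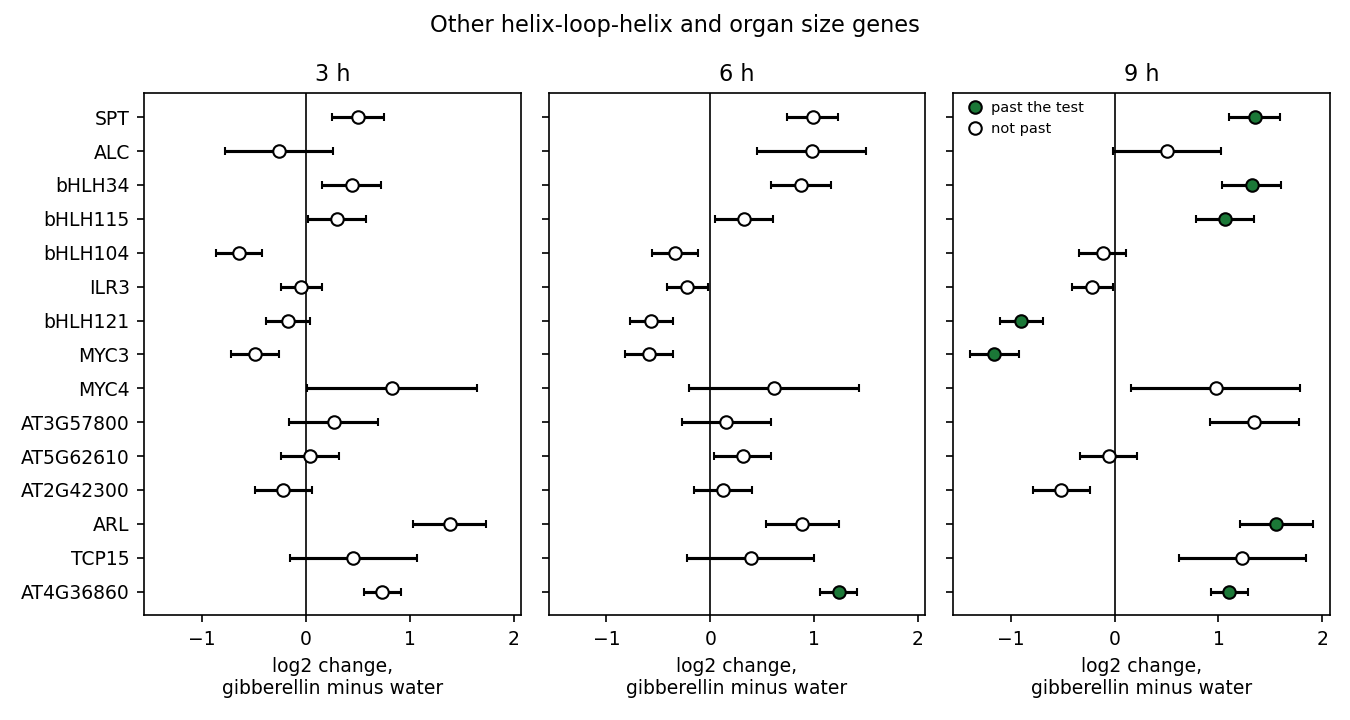
Log2 change, gibberellin minus water (horizontal axes), of 15 other bHLH and organ size genes at 3, 6 and 9 h; points are limma estimates, bars ± SE, and filled points passed the test over all probe sets. No gene is filled at 3 h, AT4G36860 is at 6 h, and 7 of the 15 are at 9 h, where the shares over all tested probe sets were 0.228%, 1.48% and 7.47%.

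None of the 10 seed marker genes and 5 flower marker genes listed for a check of the tissue has a probe set that names it alone. A check added after the annotation had been seen used 8 genes named as oleosin, dehydrin or late embryogenesis abundant. They were taken by name alone, and whether each is particular to seeds was not checked. All 8 exceeded 16 on all 12 arrays. Their summed signal lay between 6522 and 14139 in gibberellin and between 9479 and 14961 in water. The sum hides differences between members. LEA18, the brightest, had a median of 2764 in gibberellin and 4713 in water. AT2G46140 went the other way without overlap, with 280 to 445 in gibberellin and 156 to 177 in water. AT2G46140 was also among the closest 10 to BPEp with the offset. Of the leaf markers RCA and LHCB4.1 were measured, with summed signals between 307 and 833 in gibberellin and between 384 and 822 in water. Their part in the values of BPEp was not tested. The arrays measure RNA of whole seeds, in which fewer cells that hold a transcript and less transcript per cell cannot be told apart.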

How the data were processed

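Total RNA labelled with biotin was read on 1-colour Affymetrix arrays, per the labels. The deposited intensity values are MAS5 signals on a linear scale, per the submitters' processing notes, which name no version. The trimmed mean signal lay between 100.008 and 100.01 on the 12 arrays, so they had been scaled before deposition, and log2 was taken as deposited. Depth has no meaning for arrays, and their number limits the precision (median SE at a single time 0.317).

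The 64 control probe sets were dropped. Testing required at least 2 of 12 arrays above percentile 40 of the log2 values, which is a signal of 16. Names came from the platform annotation (13513 probe sets with 1 gene, 503 with several, 8730 unnamed here) and the RefSeq table of TAIR10.1. limma 3.58.1 in R 4.3.3 fitted 6 group means to 12 arrays, with 6 residual degrees of freedom and an intensity trend. Tests are two-sided, Benjamini-Hochberg adjusted over 15766 probe sets, with a threshold of 0.05. The code was tested on simulated data.

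BPEp, the gene lists and the alternatives were chosen with earlier results of these data known. Named genes are BPEp and its neighbours in the order at 6 h, the 10 most like it, all measured members of its subfamily, and of each list up to 4 members past the test with the largest change at 9 h, or else the 2 largest changes. The chromosome neighbours, AT3G03170, the seed markers and the remaining list members named were outside this rule and chosen after their values were seen.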

Additional observations from a re-analysis of the deposited data

How the results depend on the processing

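The log2 changes of BPEp with gibberellin moved by less than the residual SD of 0.800 under quantile normalization and median centring. The fits with the replicate block (letter A or B) or the signal ceiling as a block gave 3.30 at 6 h, as without a block. That was fixed by the design, because at each time both blocks are spread evenly over the 2 treatments. With the ceiling block the change at 9 h against 3 h was 1.78 in water, against 1.52 without it. In gibberellin it was 0.90, against 0.64. With log2(signal + 16) they were 0.88 at 3 h and 1.44 at 6 h, and water at 9 h against 3 h was 0.68; signals near 0 weigh less there by construction. Leaving out 1 array gave between 2.02 and 4.57 at 6 h, and between -2.11 and 0.44 for water at 6 h against 3 h. BPEp was past the threshold at 6 h with quantile normalization, median centring, either block and log2(signal + 16). It was not past it without the filter, without an intensity trend, or in a fit to the arrays at 6 h alone. Each fit that leaves out 1 array leaves 1 array in a group. Among those fits BPEp was past the threshold in some and not in others. The fit without water 6 h B, with a log2 change of 2.02, was among those where it was not.

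The labels do not say what arrays of one letter share. A minus B correlated between gibberellin and water with 0.275 at 3 h, 0.169 at 6 h and 0.103 at 9 h across probe sets. The replicate block added 1 call in the subfamily at 9 h, 1 in the PIF group at 6 h (1 with the ceiling block too), 1 among annotated bHLH genes at 6 h and 2 among organ size genes at 3 h. Without an intensity trend 1 annotated bHLH gene and 1 organ size gene were called at 9 h. Leaving out 1 array gave 0 to 1 calls in the PIF group at 6 h and at 9 h, 0 to 1 in organ size genes at 6 h and 1 to 2 at 9 h, 0 to 1 in the jasmonate list and 0 to 3 in annotated bHLH genes at 9 h. Of the 10 genes most like BPEp, 5 were shared with the closest 10 by Pearson r, 2 with log2(signal + 16), 0 with the same scale and water 6 h B left out (an alternative added after seeing the data), and between 0 and 10 when 1 array was left out. Signals near the floor limit BPEp in water at 3 h and 6 h.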
